A study of Mus musculus with 14 samples.

Results

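The 10 genes studied here were genes of bile acid synthesis, uptake and export, with the nuclear receptors that govern them, followed across mouse liver tumours of 3 genotypes. The 10 genes were taken by symbol from the 77981 rows of the deposited count table, by a rule that names them and sets no threshold on measured values, though earlier results of these data were known when they were picked: Cyp7a1, Cyp8b1, Cyp27a1, Cyp7b1, Slc10a1, Abcb11, Abcc2, Abcb4, Nr1h4 and Nr0b2. Each library came from a liver tumour started by hydrodynamic injection of plasmids for c-Myc and β-catenin, a delivery by tail-vein pressure that reaches hepatocytes. The groups were wild type (WT, n = 5), Cdk18 knockout (CDK18KO, n = 5) and knockout of Cdk16 and Cdk18 together (DKO, n = 4). Per the labels' protocols, Cdk16 was removed from established tumours of mice with floxed Cdk16 (Cdk16 fl/fl) and Cre-ERT2, a Cre recombinase that tamoxifen switches on. Tamoxifen was given at 75 mg/kg on 5 days, to these mice and to Cre-ERT2 controls, and tumours were taken 10 days after the last dose. The sources used here do not say whether the WT and CDK18KO mice were such controls, which promoter drove Cre-ERT2, how Cdk18 was removed, or the age and sex of the mice. Loss of Cdk16 therefore cannot be told apart from Cre and tamoxifen in comparisons of DKO. Tumours were collected at 15 mm, at distress or at 8 weeks after injection, so tumours of different age and size may stand in each group. The study's design text describes the libraries as biological replicates of mice.

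Hepatocytes make bile acids from cholesterol, conjugate them, and pump them into bile, from which the gut returns them to the liver in portal blood. The classical route starts with Cyp7a1 and the alternative route with Cyp27a1 and Cyp7b1, while Cyp8b1 sets the share of cholic acid. Slc10a1 takes bile acids up from blood, Abcb11 exports them into the canaliculus, Abcc2 exports conjugated organic anions such as bilirubin glucuronide, and Abcb4 delivers phosphatidylcholine into bile. Nr1h4 encodes FXR, the nuclear receptor that bile acids activate. FXR raises Abcb11 and Nr0b2, and the product of Nr0b2, the corepressor SHP, holds down Cyp7a1 and Cyp8b1.

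RNA was read from the 3′ ends of its transcripts, and total counts ran from 1442417 (WT 5) to 6068209 (WT 2). Levels are given as CPM, counts scaled to a common library size with TMM factors, with errors as SD over libraries. Cdk18 stood at 1.26 to 10.4 CPM in WT, 0.927 to 3.42 in CDK18KO and 0.563 to 4.00 in DKO, and Cdk16 at 40.0 to 59.2, 31.0 to 65.8 and 17.8 to 48.5 CPM. The sources used here do not place these 3′ ends inside or outside the deletions, so Cdk16 and Cdk18 check no label. All 20 secreted protein genes used as hepatocyte markers, Alb among them, had counts in every library, and their summed level was 333 to 8162 CPM in WT, 2769 to 27555 in CDK18KO and 3604 to 40727 in DKO (medians 1076, 13637 and 17947). WT 2 stood apart from the other WT libraries: it held 76.5% to 92.6% of the WT counts of each bile acid gene. Counts of genes higher than WT by edgeR are given with and without WT 2 for the 10 genes and for the other enzymes, transporters and regulators. Lists of cell markers are given with WT 2 only, apart from the perivenous and periportal lists. Summed Y-linked counts were above 100 CPM in WT 3, WT 5 and CDK18KO 1 (204, 788 and 348 CPM), and at most 33.0 CPM in the other libraries. Levels above 100 CPM were thus uneven between the groups, at 2 of 5, 1 of 5 and 0 of 4 libraries. Summed Y-linked levels ran from 3.85 to 788 CPM in WT, 0.311 to 348 in CDK18KO and 0.647 to 2.78 in DKO. Each WT library therefore lay above each DKO library, while CDK18KO overlapped with both groups.

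Bile acid genes stood higher in both knockout groups than in WT, by a median log2 fold change of 3.68 over the 10 genes in CDK18KO and 3.57 in DKO, against -0.01 and -0.04 over all 13997 genes tested. Between DKO and CDK18KO the median was 0.18, against -0.02 over all genes. In tissue RNA, fewer cells of a type and less RNA per cell cannot be told apart. All 10 genes had enough counts to be tested, but Cyp7b1 reached the 3.40 CPM that the filter asks for in 0 WT libraries, and Cyp8b1 and Nr0b2 in WT 2 alone among WT libraries. These genes were thus kept for testing mainly through the knockout libraries. Cyp7b1 and Cyp8b1 are among the genes counted below as higher than WT, so those counts lean in part on that filter. Shares of all tested genes are given beside the counts of the 10 genes, but they do not remove this. The 2 comparisons with WT share the WT libraries.

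Libraries within a genotype spread widely, and no gene of the set was called at the adjusted threshold. By the edgeR quasi-likelihood test with Benjamini-Hochberg adjustment, 0 of 10 genes passed an adjusted p under 0.05 in CDK18KO against WT, where 0.00714% of all genes did, which was 1 gene, C1rb, a complement protease gene. DKO against WT also gave 0 of 10 (0.00714%, again C1rb), and DKO against CDK18KO gave 0 of 10 (0%). At an unadjusted p under 0.05, 8 of 10 were higher in CDK18KO than in WT, where 11.6% of all genes were, and 9 of 10 were higher in DKO, where 13.7% were. None of the 10 was lower (5.31% and 5.22% of all genes). DESeq2 called the same numbers at its adjusted p, 8 of 10 in CDK18KO (4.3% of all genes called higher) and 9 of 10 in DKO (6.25%), with 0 lower (1.81% and 1.13%). Between DKO and CDK18KO, 0 of 10 passed an unadjusted p (3.94% of all genes higher, 1.86% lower) and DESeq2 called 0 of 10 (0.572% higher, 0.0286% lower). In size, 7 of 10 genes stood more than 8-fold above WT in CDK18KO (1.94% of all genes) and 9 of 10 in DKO (3.32%), and 0 of 10 in DKO above CDK18KO (1.02%). The WT libraries nonetheless overlapped with the knockout libraries for each gene: 0 of 10 genes were free of overlap in CDK18KO (1.1% of all genes) and 0 of 10 in DKO (3.04%), and DKO lay clear of CDK18KO for 0 of 10 (0.872%).

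**Figure D1:**
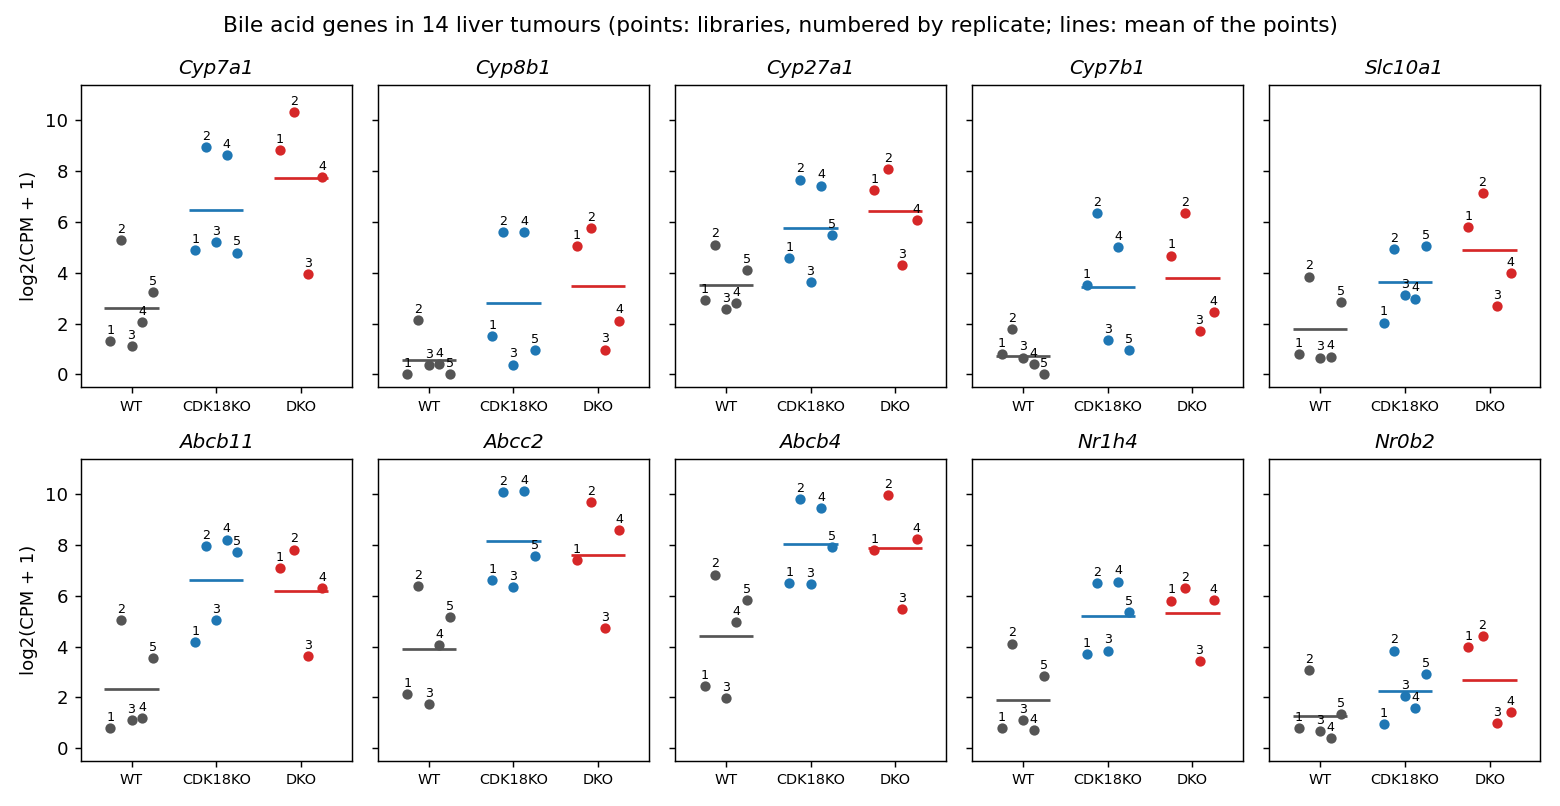
Level of each of the 10 genes in every library, as log2(CPM + 1) on the vertical axis, by genotype on the horizontal axis. Points are libraries with their replicate number and lines are means of the plotted points. WT 2 is the highest WT point in each panel, DKO 3 the lowest DKO point, and CDK18KO 2, CDK18KO 4, DKO 1 and DKO 2 lie at or near the top in most panels.

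Cyp7a1, the rate-limiting enzyme of the classical pathway, had its highest mean in DKO tumours, with wide spread in each group. Its level was 1.48, 38.1, 1.16, 3.15 and 8.49 CPM in WT 1 to 5, 28.6, 491, 35.7, 393 and 26.9 CPM in CDK18KO 1 to 5, and 455, 1293, 14.6 and 215 CPM in DKO 1 to 4. Each CDK18KO library lay above 4 of the 5 WT libraries, but CDK18KO 1, 3 and 5 lay below WT 2, and DKO 3 was the one DKO library that did so. The means were 10.5 ± 15.7, 195 ± 228 and 495 ± 562 CPM. On the log2 scale edgeR placed Cyp7a1 4.16 ± 1.30 (SE) above WT for CDK18KO (adjusted p = 0.167) and 5.50 ± 1.41 above it for DKO (adjusted p = 0.146). DESeq2 gave an adjusted p of 0.00797 and 0.000984. DKO exceeded CDK18KO by 1.34 ± 1.21 (SE, edgeR adjusted p = 0.993), a difference within the spread of the libraries. That difference was 0.28 without DKO 2, 2.01 without CDK18KO 2 and 0.04 with the hepatocyte covariate described below. Cyp7a1 lies at chr4:6265612-6275632 in GRCm38.p6 (RefSeq), the build of all positions given here.

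Cyp8b1, the sterol hydroxylase needed for cholic acid, was close to the counting floor in most WT tumours. WT libraries 1 to 5 held 0, 3.43, 0.291, 0.315 and 0 CPM, and the 0 in WT 1 and WT 5 allows up to 1.11 and 2.31 CPM (3 counts each). CDK18KO 1 to 5 held 1.86, 47.3, 0.311, 47.2 and 0.927 CPM and DKO 1 to 4 held 32, 53.5, 0.971 and 3.33 CPM. High and low tumours were separate within each knockout group: CDK18KO 2, CDK18KO 4, DKO 1 and DKO 2 were at 32 CPM or more, and the other 5 knockout libraries at 3.33 CPM or less. The estimated log2 difference of Cyp8b1 from WT was 4.18 ± 1.48 (SE) for CDK18KO (edgeR adjusted p = 0.189) and 4.38 ± 1.52 for DKO (adjusted p = 0.156). Of 27 WT counts, 25 were in WT 2. Without WT 2 the ratio of scaled counts to WT was 94.6 in CDK18KO (exact 95% counting interval 25.9 to 786) and 113 in DKO (30.8 to 936), against 11.8 and 14.1 with it. These ratios pool counts over tumours, and their intervals cover counting error only and leave out the spread between tumours. Of 241 CDK18KO counts, 89 were in CDK18KO 2 and 143 in CDK18KO 4, and CDK18KO 3 was no higher than WT 4. Cyp8b1 lies at chr9:121914356-121916305.

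The 250 bases before the start of Cyp8b1, at chr9:121916306-121916555 on the minus strand, are shown because the gene is a textbook target of HNF4A. Capitals mark CAAAGTCCA, a word of the HNF4A-binding type, 67 to 59 bases before the start.
Cyp8b1: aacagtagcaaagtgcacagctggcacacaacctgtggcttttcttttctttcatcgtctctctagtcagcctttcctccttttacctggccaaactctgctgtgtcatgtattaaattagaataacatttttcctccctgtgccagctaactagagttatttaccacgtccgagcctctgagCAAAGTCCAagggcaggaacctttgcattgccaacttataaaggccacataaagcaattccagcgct
On either strand, CAAAGTCCA occurs in 0.387% of the 32536 RefSeq promoter windows of 250 bases. The match describes the sequence, and binding was not measured here. RefSeq windows were matched for 8 of the 10 genes.

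Cyp27a1 and Cyp7b1, the enzymes of the alternative pathway, were both higher on average in the knockout groups. Cyp27a1, a mitochondrial sterol hydroxylase, was at 6.67, 33.5, 4.95, 5.99 and 16.2 CPM in WT 1 to 5, 22.7, 203, 11.5, 172 and 44.0 CPM in CDK18KO 1 to 5, and 153, 269, 18.8 and 66.7 CPM in DKO 1 to 4. It was above the filter's 3.40 CPM in all 14 libraries, and the group means were 13.5 ± 12.1, 90.6 ± 89.8 and 127 ± 110.0 CPM. For Cyp27a1, CDK18KO minus WT came to 2.73 ± 0.89 (SE) in log2 units and DKO minus WT to 3.22 ± 0.93, with edgeR adjusted p of 0.169 and 0.146. Cyp7b1, the oxysterol hydroxylase of that route, was at 0.742, 2.47, 0.582, 0.315 and 0 CPM in WT, where the 0 in WT 5 allows up to 2.31 CPM. It was at 10.6, 80.8, 1.55, 31.4 and 0.927 CPM in CDK18KO and 24.6, 80.0, 2.27 and 4.45 CPM in DKO. CDK18KO 3, CDK18KO 5 and DKO 3 lay below WT 2 for Cyp7b1, and the other knockout libraries lay above each WT library. The estimated log2 difference of Cyp7b1 from WT was 4.58 ± 1.30 (SE) for CDK18KO (edgeR adjusted p = 0.162) and 4.74 ± 1.33 for DKO (adjusted p = 0.146). Between DKO and CDK18KO, Cyp8b1, Cyp27a1 and Cyp7b1 differed by 0.20 (SE 1.33), 0.49 (SE 0.87) and 0.15 (SE 1.14), each with an edgeR adjusted p of at least 0.993. Cyp27a1 lies at chr1:74713148-74737897 and Cyp7b1 at chr3:18071944-18243890.

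Slc10a1, the sodium-dependent importer of bile acids from blood, was the gene with the largest difference between CDK18KO and DKO in the set. WT 1 to 5 held 0.742, 13.5, 0.582, 0.630 and 6.17 CPM, CDK18KO 1 to 5 held 3.11, 29.8, 7.76, 6.94 and 32.4 CPM and DKO 1 to 4 held 54.9, 139, 5.50 and 15.0 CPM. In CDK18KO, libraries 2 and 5 exceeded each WT library, and libraries 1, 3 and 4 lay among the WT values. In DKO, libraries 1, 2 and 4 exceeded each WT library and DKO 3 did not. The means were 4.32 ± 5.64, 16.0 ± 13.9 and 53.5 ± 60.6 CPM. On the log2 scale edgeR placed Slc10a1 1.82 ± 1.02 (SE) above WT for CDK18KO (adjusted p = 0.377) and 3.57 ± 1.09 above it for DKO (adjusted p = 0.146). Slc10a1 and Nr0b2 were the genes of the set that missed an unadjusted p under 0.05 in CDK18KO. The direct comparison of DKO with CDK18KO gave 1.75 ± 1.03 (SE, edgeR adjusted p = 0.951), and 0.71 without DKO 2. Slc10a1 lies at chr12:80953185-80968705.

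Abcb11, the bile salt export pump, was high in 3 of 5 CDK18KO and 3 of 4 DKO tumours. Its level was 0.742, 31.7, 1.16, 1.26 and 10.8 CPM in WT 1 to 5, 17.1, 245, 31.7, 295 and 212 CPM in CDK18KO 1 to 5 and 136, 225, 11.3 and 77.2 CPM in DKO 1 to 4. CDK18KO 1 and DKO 3 lay below WT 2, and CDK18KO 3 was level with it to 3 digits. The means were 9.14 ± 13.3, 160.2 ± 128 and 112 ± 90.9 CPM. For Abcb11, CDK18KO minus WT came to 4.08 ± 1.14 (SE) in log2 units and DKO minus WT to 3.57 ± 1.15, with edgeR adjusted p of 0.162 and 0.147. DESeq2 gave an adjusted p of 0.00442 and 0.0203. Abcb11 lies at chr2:69238282-69342616.

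The 250 bases before the start of Abcb11, at chr2:69342617-69342866 on the minus strand, are shown because the gene is a textbook target of FXR, itself in the set. Capitals mark AGGCCATTGACCT, 63 to 51 bases before the start, which differs at 1 base from an inverted repeat of AGGTCA with 1 base between, the type of element that FXR binds with RXR.
Abcb11: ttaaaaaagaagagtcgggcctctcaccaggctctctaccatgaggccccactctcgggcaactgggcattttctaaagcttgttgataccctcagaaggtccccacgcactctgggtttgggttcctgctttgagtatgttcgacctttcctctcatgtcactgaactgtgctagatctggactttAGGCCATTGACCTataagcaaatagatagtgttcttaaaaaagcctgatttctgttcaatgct
With 1 mismatch allowed and both strands searched, the inverted repeat occurs in 26 of the 32536 promoter windows (0.0799%). Abcb11 was the only one of the 8 genes with a window in RefSeq to hold it.

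Abcc2 and Abcb4, the canalicular pumps for conjugated anions and phospholipid, followed each other closely. Abcc2 was at 3.34, 82.0, 2.33, 15.8 and 34.7 CPM in WT 1 to 5, 97.8, 1092, 79.8, 1122 and 189 CPM in CDK18KO 1 to 5, and 169, 819, 25.2 and 382 CPM in DKO 1 to 4. Abcb4 was at 4.45, 113, 2.91, 30.2 and 56.3 CPM in WT, 90.1, 902, 87.9, 699.6 and 242 CPM in CDK18KO and 223, 1002, 43.4 and 302 CPM in DKO. For both genes CDK18KO 2, CDK18KO 4 and DKO 2 were the 3 highest libraries and WT 1 and WT 3 the lowest. On the log2 scale edgeR placed Abcc2 4.21 ± 1.17 (SE) above WT for CDK18KO (adjusted p = 0.162) and 3.64 ± 1.17 above it for DKO (adjusted p = 0.147). For Abcb4, CDK18KO minus WT came to 3.28 ± 1.06 (SE) in log2 units and DKO minus WT to 3.24 ± 1.08, with edgeR adjusted p of 0.169 and 0.150. Between DKO and CDK18KO the 3 exporters differed by -0.51 (SE 1.07) for Abcb11, -0.57 (SE 1.1) for Abcc2 and -0.04 (SE 1.03) for Abcb4 (edgeR adjusted p of 0.993 to 0.999). Those SEs leave room for differences of either sign. Abcc2 lies at chr19:43782308-43838332 and Abcb4 at chr5:8893614-8959226.

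Nr1h4, which encodes the bile acid receptor FXR, stood higher in the knockout groups with close means in both. Its level was 0.742, 16.3, 1.16, 0.630 and 6.17 CPM in WT 1 to 5, 12.1, 90.4, 13.4, 93.1 and 40.3 CPM in CDK18KO 1 to 5 and 55.1, 77.8, 9.71 and 56.1 CPM in DKO 1 to 4. CDK18KO 1, CDK18KO 3 and DKO 3 lay below WT 2 and above the other WT libraries. The means were 5.01 ± 6.75, 49.9 ± 39.9 and 49.7 ± 28.6 CPM. The estimated log2 difference of Nr1h4 from WT was 3.25 ± 0.93 (SE) for CDK18KO (edgeR adjusted p = 0.162) and 3.24 ± 0.96 for DKO (adjusted p = 0.146). DKO minus CDK18KO was -0.01 (SE 0.89). Nr1h4 lies at chr10:89454234-89533645.

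Nr0b2, which encodes the corepressor SHP, had the smallest difference from WT in the set. WT 1 to 5 held 0.742, 7.42, 0.582, 0.315 and 1.54 CPM, CDK18KO 1 to 5 held 0.932, 13.3, 3.11, 1.98 and 6.49 CPM and DKO 1 to 4 held 14.9, 20.3, 0.971 and 1.67 CPM. CDK18KO 2, DKO 1 and DKO 2 were the libraries above WT 2. The means were 2.12 ± 3.00, 5.16 ± 5.00 and 9.44 ± 9.64 CPM. For Nr0b2, CDK18KO minus WT came to 1.13 ± 0.99 (SE) in log2 units and DKO minus WT to 2.02 ± 1.03, with edgeR adjusted p of 0.588 and 0.304. Nr0b2 missed an unadjusted p under 0.05 in both comparisons, and DKO exceeded CDK18KO by 0.90 (SE 1.02). Nr0b2 lies at chr4:133553376-133556686.

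The 250 bases before the start of Nr0b2, at chr4:133553126-133553375 on the plus strand, are shown because the orphan receptor Nr5a2, tested below, is a textbook activator of this gene. Capitals mark TCAAGG, the core word of Nr5a2 sites, 68 to 63 and 35 to 30 bases before the start.
Nr0b2: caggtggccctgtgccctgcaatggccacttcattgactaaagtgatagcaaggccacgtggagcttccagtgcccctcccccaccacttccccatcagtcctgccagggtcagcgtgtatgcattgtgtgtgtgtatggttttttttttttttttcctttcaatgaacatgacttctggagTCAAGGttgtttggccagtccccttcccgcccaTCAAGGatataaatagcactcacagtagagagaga
TCAAGG is short, and 12.4% of the 32536 windows hold it on either strand. Searched in the same way with up to 2 mismatches, an inverted repeat of GTTAAT with 1 base between, the HNF1 type of site, occurs in 1.25% of windows, among them those of Nr1h4 (40 to 28 bases before the start of its window's transcript) and Abcc2 (75 to 63). The Nr1h4 window, chr10:89506659-89506908 on the minus strand, lies inside the gene span given above. Its start is therefore internal to the gene.

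**Figure D2:**
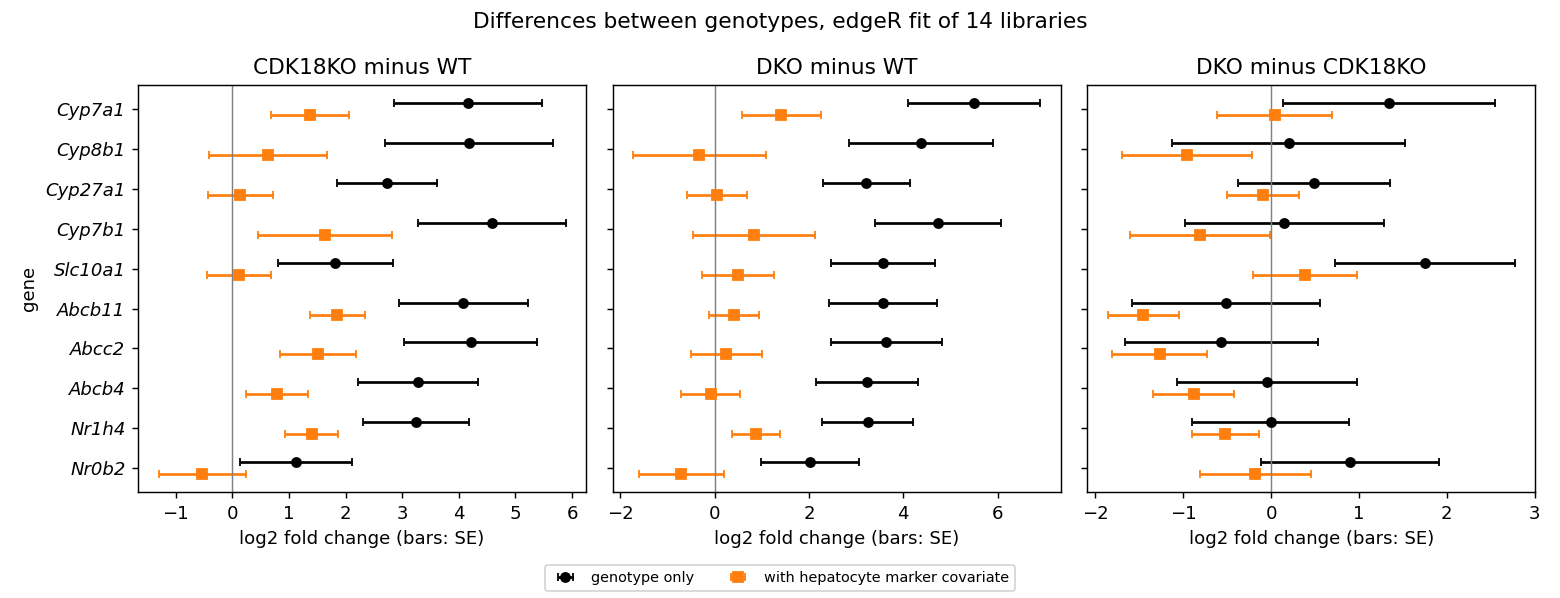
Log2 fold change of each gene (horizontal axis) in the 3 comparisons, with SE as bars, from the edgeR fit of genotype alone (black circles) and from the fit that adds the mean of 20 hepatocyte genes (orange squares). Against WT, the black points lie between 1.13 and 5.50. With the hepatocyte term the medians over the 10 genes are 1.08 for CDK18KO minus WT, 0.32 for DKO minus WT and -0.67 for DKO minus CDK18KO.

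The 10 genes shared a trend over the libraries, across genotypes as well as within them, but not a single order. By the mean log2 CPM of the 10 genes, DKO 2 (7.58), CDK18KO 2 (7.16), CDK18KO 4 (6.53) and DKO 1 (6.37) came first and WT 4 (1.53), WT 1 (1.03) and WT 3 (0.95) last. WT 2 (4.32) stood above CDK18KO 1 (3.78), CDK18KO 3 (3.65) and DKO 3 (3.09). By rank among the 14 libraries, DKO 2 lay between 1 and 3 for each gene, while CDK18KO 4 ranged from 1 to 8, CDK18KO 5 from 3 to 10 and WT 5 from 9 to 14. Pearson correlations of log2 CPM over the 14 libraries ranged from 0.67 to 0.99 over the 45 pairs of genes, with a median of 0.86. After subtraction of each group's mean they ranged from 0.43 to 0.98, with a median of 0.80. The closest pairs were Abcc2 with Abcb4 (0.99) and Abcb11 with Nr1h4 (0.98), and the loosest Cyp7b1 with Slc10a1 (0.67) and with Nr0b2 (0.68). These coefficients describe libraries that share depth and tissue makeup and carry no test.

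By the same measure, the genes outside the lists most like Abcb11 were Galm, a sugar epimerase (0.990), Smlr1 (0.989) and Creb3l3, a liver-enriched transcription factor (0.985). Those most like Nr1h4 were Smlr1 (0.987), the glutathione transferase Gsta3 (0.984) and Fxyd1 (0.981). Lactb (0.989), the unnamed gene ENSMUSG00000136255 (0.986) and the lactate dehydrogenase Ldhd (0.982) were nearest to Cyp7a1. The search covered 11995 tested genes with a mean of at least 5 CPM over the 14 libraries. Creb3l3 was at 11.5 ± 15.6, 116 ± 105 and 91.4 ± 69.1 CPM in WT, CDK18KO and DKO, and Lactb at 19.8 ± 10.6, 63.4 ± 42.2 and 92.0 ± 61.5 CPM.

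Bile acid genes also moved with genes for secreted liver proteins. Of the 20 such genes, 16 were higher in CDK18KO than in WT at an unadjusted p under 0.05, with a median log2 fold change of 2.39, and 20 of 20 in DKO, with a median of 3.00, against 11.6% and 13.7% of all genes. Each of the 10 bile acid genes correlated with the mean log2 CPM of these 20 genes over the 14 libraries, from 0.79 (Cyp7b1) to 0.96 (Nr1h4). WT 1 to 5 had means of 3.42, 8.21, 4.26, 4.99 and 6.78. CDK18KO 1 to 5 had 7.33, 9.92, 6.34, 9.05 and 8.70, and DKO 1 to 4 had 9.84, 10.6, 6.85 and 8.70. WT 2 had a higher mean than CDK18KO 1, CDK18KO 3 and DKO 3, the libraries it also exceeded for most bile acid genes. A further fit added the mean of the 20 genes as a covariate. That mean itself differed between the genotypes and correlated with each gene of the set, so smaller differences were likely in advance. The fit cannot tell genotype apart from hepatocyte marker level and assigns no part of the differences to either.

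**Figure D3:**
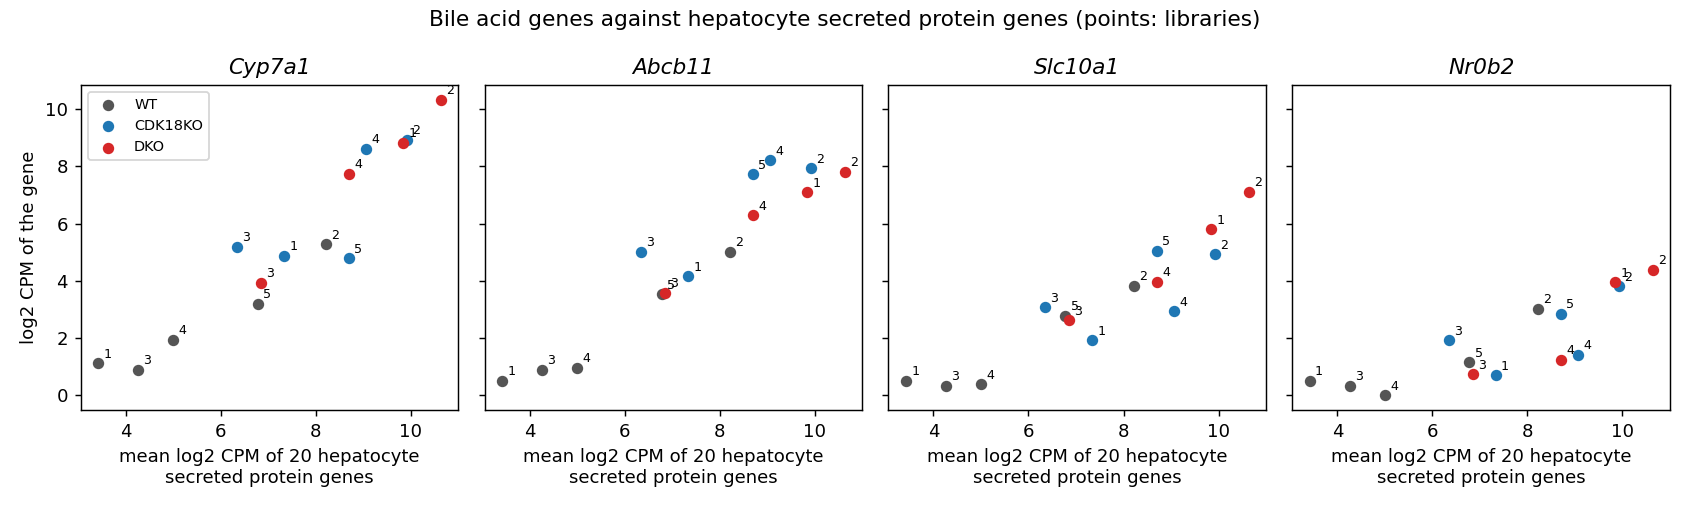
Log2 CPM of Cyp7a1, Abcb11, Slc10a1 and Nr0b2 (vertical axis) against the mean log2 CPM of 20 hepatocyte secreted protein genes (horizontal axis), with 1 point per library, labelled by replicate and coloured by genotype. The points run from low WT libraries at 3.42 on the horizontal axis to DKO 2 at 10.6, and WT 2 (8.21) lies among the knockout libraries.

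With that mean as a covariate, the differences from WT were smaller for each of the 10 genes. In CDK18KO against WT the median over the set was 1.08, and 3 of 10 genes were higher at an unadjusted p under 0.05 (1.06% of all genes) and 0 lower (2.29%). Abcb11 differed by 1.86 (SE 0.48, unadjusted p = 0.00174, adjusted p = 0.526), Nr1h4 by 1.40 (SE 0.46, unadjusted p = 0.00905, adjusted p = 1.0) and Abcc2 by 1.51 (SE 0.68, unadjusted p = 0.0413, adjusted p = 1.0). Slc10a1 was at 0.11 (SE 0.57, unadjusted p = 0.846, adjusted p = 1.0), and Nr0b2 differed by -0.53 (SE 0.77, unadjusted p = 0.505, adjusted p = 1.0). In DKO against WT the median was 0.32 and 0 of 10 genes passed an unadjusted p under 0.05 (0.929% of all genes higher, 0.543% lower), the largest difference being Cyp7a1 at 1.41 (SE 0.83, unadjusted p = 0.111, adjusted p = 1.0). In DKO against CDK18KO, 0 of 10 were higher (4.19% of all genes) and 2 lower (2.42%): Abcb11 by -1.45 (SE 0.40, unadjusted p = 0.00281, adjusted p = 0.344) and Abcc2 by -1.27 (SE 0.54, unadjusted p = 0.0333, adjusted p = 0.701). Without the covariate these 2 genes were at -0.51 and -0.57. The marker genes themselves had a median log2 fold change of 0.57 in DKO over CDK18KO. A downward shift of genes correlated with them was therefore likely in advance in this comparison. No gene of the set passed the edgeR adjusted threshold in these fits.

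The ratio of 2 genes' counts within a library does not depend on scaling between libraries, and the ratio of exporter to importer had its highest median in CDK18KO. The pairs were chosen after their values were seen, so the ratios carry no test. Abcb11 had 1 to 2.36 counts per count of Slc10a1 in WT, 4.08 to 42.6 in CDK18KO and 1.63 to 5.15 in DKO, with medians of 2, 6.53 and 2.27. The WT ratios other than that of WT 2 rest on 2 to 8 counts of Slc10a1, and their exact 95% counting intervals reach up to 13.8, 22.1, 22.1 and 4.81 in WT 1, 3, 4 and 5, into the CDK18KO range. In WT 2 the ratio was 2.36 (interval 1.85 to 3.02), and the lowest CDK18KO ratio, 4.08 in CDK18KO 3, had an interval of 2.61 to 6.60. WT and CDK18KO are therefore not separated at this depth, and the DKO ratios overlapped with both. CDK18KO 4 was the highest, with 894 counts of Abcb11 and 21 of Slc10a1 (ratio 42.6, exact 95% counting interval 27.7 to 69.1). For Abcc2 over Slc10a1 the ranges overlapped, at 4 to 25 in WT, 5.81 to 162 in CDK18KO and 3.09 to 25.4 in DKO.

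The ratio of Nr0b2 to its activator Nr1h4 was lower in most knockout libraries. It was 0.25 to 1 in WT, where WT 2 alone had over 10 counts of each gene (0.454, interval 0.323 to 0.631). CDK18KO ranged from 0.0213 to 0.233 and DKO from 0.0297 to 0.269. The 4 shallow WT ratios rest on 1 or 2 counts of Nr0b2, so their intervals reach down into the knockout range. Within the synthesis pathways, Cyp7a1 had 0.222 to 1.14 counts per count of Cyp27a1 in WT, 0.611 to 3.11 in CDK18KO and 0.776 to 4.80 in DKO, with overlap between the groups.

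**Figure D4:**
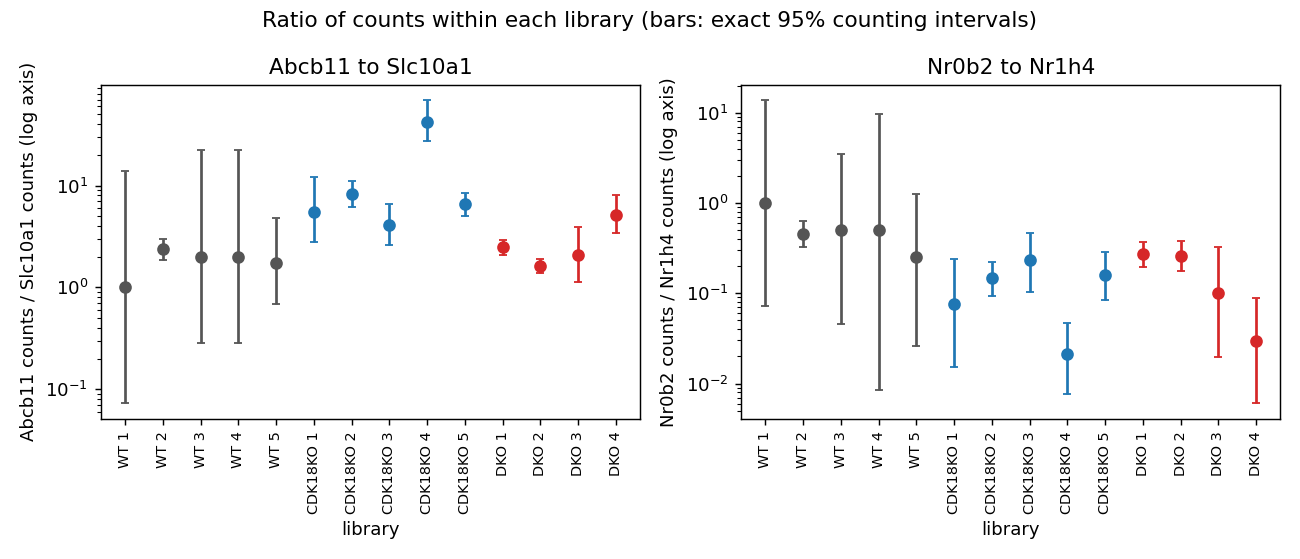
Ratio of counts of Abcb11 to Slc10a1 (left) and of Nr0b2 to Nr1h4 (right) in each library, on log vertical axes, with exact 95% counting intervals as bars. On the left the CDK18KO ratios are 4.08 or more and the WT ratios 2.36 or less, but the intervals of WT 1, 3, 4 and 5 reach up to between 4.81 and 22.1, over CDK18KO values. CDK18KO 4 and DKO 4 are lowest on the right.

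Other enzymes of bile acid synthesis and conjugation stood higher in the knockout tumours as the set did. Of 18 listed enzymes 14 were tested, of which 11 were higher and 0 lower in CDK18KO at an unadjusted edgeR p under 0.05 (median log2 fold change 2.77), and 12 higher and 0 lower in DKO (median 3.23). Over all genes 11.6% were higher in CDK18KO and 13.7% in DKO at that threshold, and 5.31% and 5.22% were lower. These shares also apply to the lists that follow. Without WT 2, 13 of 13 and 11 of 13 tested enzymes were higher (13.2% and 14.8% of all genes). None passed edgeR's adjusted threshold with all libraries, and DESeq2 called 8 and 10 of them higher (4.3% and 6.25% of all genes). Baat, which joins bile acids to taurine or glycine, was at 3.22 ± 3.69, 50.6 ± 61.7 and 103 ± 108 CPM in WT, CDK18KO and DKO, a log2 fold change over WT of 3.88 (SE 1.22) and 4.91 (SE 1.29). Akr1d1, a steroid reductase, differed by 3.68 (SE 1.04) and 4.25 (SE 1.09), and Slc27a2, an acyl-CoA synthetase, by 3.69 (SE 1.03) and 3.91 (SE 1.07). Scp2, a peroxisomal thiolase and sterol carrier, differed by 2.67 (SE 0.75) and 2.67 (SE 0.77). Hsd3b7, Cyp46a1, Ch25h and Acnat1 had too few counts to be tested.

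Cyp2a12, which hydroxylates secondary bile acids in mice, is named after its values were seen. It was higher in each DKO tumour than in each CDK18KO tumour, as 0.872% of all tested genes were. That separation rests on few counts, with 7 in DKO 4 (3.89 CPM) and 9 in CDK18KO 1 (2.80 CPM). Cyp2a12 was at 0, 27.9, 0.582, 0.945 and 1.54 CPM in WT 1 to 5, and at 0.932 to 2.80 CPM in CDK18KO (median 1.06). In DKO 1 to 4 the gene was at 132, 34.4, 6.47 and 3.89 CPM. WT 2 held 203 of the 210 WT counts, and the WT median of 0.945 CPM was below that of CDK18KO. The log2 fold changes over WT, -2.07 (SE 1.26) in CDK18KO and 2.74 (SE 1.22) in DKO, thus rest on WT 2, and without it Cyp2a12 had too few counts to be tested. DKO minus CDK18KO was 4.81 (SE 1.38) (edgeR adjusted p = 0.415). Beside Cyp2a12, the acyltransferase Acnat2 was the other enzyme higher in DKO than in CDK18KO at an unadjusted p under 0.05, by 2.52 (SE 1.14).

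Transporters and regulators outside the set also stood mostly higher in the knockout tumours. Of 17 listed transporters 13 were tested, with 9 higher in CDK18KO (median 2.50) and 10 in DKO (median 2.84) at an unadjusted p under 0.05, 0 lower and 0 past the edgeR adjusted threshold. DESeq2 called 6 and 5 of them higher. Without WT 2, 9 and 11 of 13 tested transporters were higher at an unadjusted edgeR p under 0.05 (13.2% and 14.8% of all genes). Slco1b2, a basolateral uptake carrier, was at 125 ± 129, 1443 ± 1531 and 2367 ± 2399 CPM in WT, CDK18KO and DKO. Slco1a4 differed from WT by 3.46 (SE 1.22) and 4.33 (SE 1.29), and the canalicular lipid flippase Atp8b1 by 2.83 (SE 0.77) and 3.07 (SE 0.80). Slco2b1 differed from WT by 0.45 (SE 0.74) in CDK18KO and 2.98 (SE 0.79) in DKO, and the direct difference of DKO from CDK18KO was 2.53 (SE 0.77) (edgeR adjusted p = 0.485). The basolateral exporter Abcc4 was at 0.05 (SE 0.58) and -0.37 (SE 0.62).

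Of 20 listed regulators 18 were tested, with 11 higher in CDK18KO (median 2.14) and 9 in DKO (median 2.12) at an unadjusted p under 0.05, 0 lower and 0 past the edgeR adjusted threshold. DESeq2 called 5 higher in each group. Without WT 2, 13 and 13 of 18 tested regulators were higher at an unadjusted edgeR p under 0.05 (13.2% and 14.8% of all genes). Their medians were then 2.98 and 3.05. Nr5a2, an activator of Cyp8b1 and Nr0b2, was at 9.86 ± 13.1 CPM in WT, 161 ± 122 in CDK18KO and 107 ± 114 in DKO. Its log2 fold change over WT was 3.98 (SE 1.08) and 3.38 (SE 1.08). Prox1, a hepatocyte corepressor of Cyp7a1, differed by less, with smaller SEs, by 1.92 (SE 0.39) and 1.33 (SE 0.40). The oxysterol receptor Nr1h3 differed by 2.31 (SE 0.73) and 2.49 (SE 0.76), and the xenobiotic receptor Nr1i3 by 2.39 (SE 1.1) and 3.92 (SE 1.18). Klb and Fgfr4, the receptor pair for the gut hormone that represses Cyp7a1, differed by 2.91 (SE 1.06) and 2.53 (SE 1.09) and by 1.68 (SE 1.05) and 2.32 (SE 1.09). Fgf15 itself and Gpbar1 had too few counts to be tested.

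**Figure D5:**
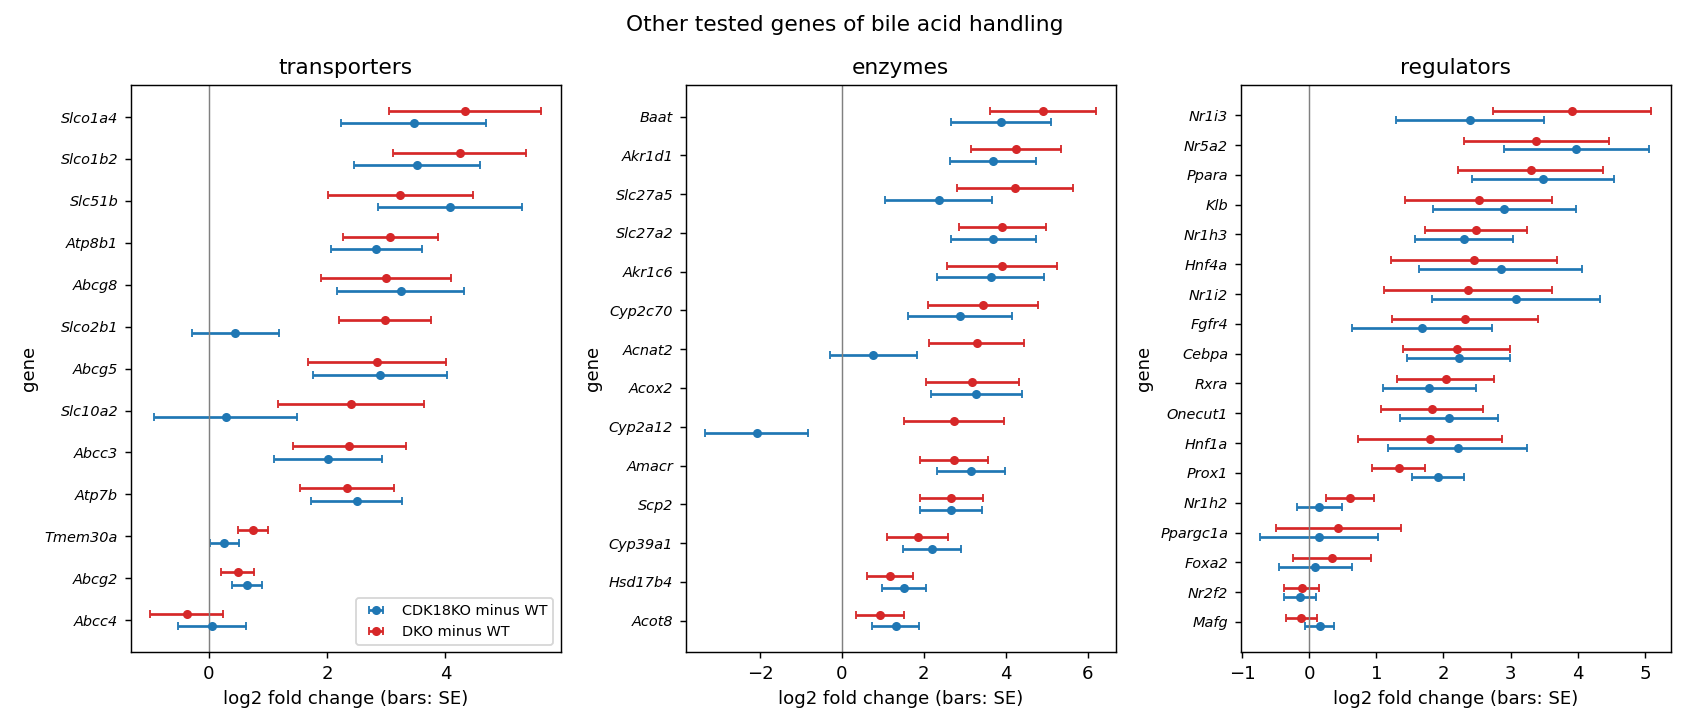
Log2 fold change over WT (horizontal axis, SE as bars) of the other tested transporters, enzymes and regulators of bile acid handling in CDK18KO (blue) and DKO (red). Most points lie to the right of 0, with medians of 2.12 to 3.23 in DKO, and the CDK18KO point of Cyp2a12 (-2.07) rests on WT 2, which held 203 of its 210 WT counts.

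Marker genes of other cells also differed between the groups. At an unadjusted edgeR p under 0.05 against WT, 11.6% of all genes were higher and 5.31% lower in CDK18KO. In DKO 13.7% were higher and 5.22% lower. Among 14 cholangiocyte markers, the summed level was 220 to 542 CPM in WT, 97.1 to 416 in CDK18KO and 263 to 754 in DKO; 0 of 11 tested were higher and 4 lower in CDK18KO than in WT at an unadjusted p, and 1 was higher and 0 lower in DKO. Between 2 and 9 of the 14 were at 0 in the CDK18KO libraries, against 0 to 1 in WT and 0 to 2 in DKO. Neutrophil markers summed to 46.6 to 293 CPM in WT, 6.83 to 95.5 in CDK18KO and 384 to 559 in DKO, where 6 of 7 tested markers were higher than in WT, against 0 of 7 in CDK18KO. Erythroid markers summed to 562 to 2673 CPM in WT, 538 to 1935 in CDK18KO and 1746 to 10322 in DKO, where 8 of 8 were higher. Stellate cell and fibroblast markers summed to 465 to 1378, 48.2 to 943 and 476 to 1235 CPM, with 6 of 13 lower in CDK18KO and 1 of 13 lower in DKO. T, NK and B cell markers, of which 3 of 12 had enough counts to be tested, summed to 2.6 to 12.3 CPM in WT, 2.17 to 9.94 in CDK18KO and 34.0 to 129 in DKO, with 3 of 3 higher in DKO than in WT. Macrophage and Kupffer cell markers summed to 109 to 355, 102 to 296 and 147 to 1058 CPM, highest in DKO 1, with 3 of 10 higher in DKO and 0 of 10 in CDK18KO. The part of these cell types in the bile acid results was not tested. Perivenous hepatocyte markers, which include targets of β-catenin, had 7 of 14 higher in CDK18KO (median 2.76) and 11 of 14 in DKO (median 3.47), and periportal markers 2 of 14 (median 0.59) and 6 of 14 (median 2.03). Without WT 2, 10 and 11 of 14 perivenous markers and 5 and 8 of 14 periportal markers were higher (13.2% and 14.8% of all genes).

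WT 2 and the libraries numbered 2 in the knockout groups weighed most on the size of the differences. Without WT 2 the median over the 10 genes was 4.99 in CDK18KO and 4.84 in DKO, and 10 of 10 genes were higher at an unadjusted p under 0.05 in each (13.2% and 14.8% of all genes). Without CDK18KO 2 the CDK18KO median was 3.14 and 8 of 10 genes passed (6.83%), and without DKO 2 the DKO median was 2.83 and 8 of 10 passed (8%). Single genes moved alike: without WT 2, Cyp8b1 was at 6.40 in CDK18KO and 6.61 in DKO, Slc10a1 at 3.21 and 4.96, and Nr0b2 at 2.74 and 3.64. Nr0b2 was at 0.37 without CDK18KO 2 and at 1.36 without DKO 2 in those comparisons. Over the 14 fits that each left out 1 library, Cyp7a1 ranged from 3.40 to 5.91 in CDK18KO and from 4.36 to 7.25 in DKO, and Abcb11 from 3.72 to 5.74 and from 2.96 to 5.24. No gene of the set passed the edgeR adjusted threshold in any of those fits. With summed Y-linked expression as a covariate the medians were 2.85 and 2.57, with 6 and 3 of 10 genes higher at an unadjusted p under 0.05 (4.05% and 5.26% of all genes). Without WT 3, WT 5 and CDK18KO 1, which had the high Y-linked levels, the medians were 3.55 and 3.20, with 7 and 8 of 10 (7.91% and 9.18%). WT 1, WT 2 and WT 4, with summed Y-linked levels of 33.0, 3.85 and 18.3 CPM, still lay above each DKO library in that fit.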

How the data were processed

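The 14 tumour libraries were analysed. The authors deposited raw counts per gene symbol, and the submitters' processing notes name STAR 2.7.11a, UMI-tools 1.1.2, FastQC, DESeq2 1.32.0 and HTSeq 1.99.2, with builds mm10 and GRCh38 named without a role. The sources used here give neither the annotation nor whether molecular identifiers were collapsed, so intervals and floors cover counting error only. The study's design text calls the libraries biological replicates. No pair of libraries agreed within sampling noise (smallest chi-square per gene 13.1).

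Counts were tested in R 4.3.3 with edgeR 4.0.16 (quasi-likelihood F test, TMM), after its filterByExpr step by genotype, with all 14 libraries in 1 fit, two-sided, with Benjamini-Hochberg adjustment over 13997 genes and a threshold of 0.05. The genes kept held 99.0% of counts, and the common biological coefficient of variation was 0.598. SE is the log2 fold change divided by the square root of F. Correlations used log2 CPM with a prior count of 2. The pipeline was tested on simulated data. Ratios of counts have exact 95% intervals, and the floor for a count of 0 is 3 counts in a library.

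The members, the gene lists and the tests were chosen with earlier results of these data known. Named genes are the 10 members, Cdk16 and Cdk18, up to 4 genes of each list described with the smallest edgeR p in DKO against WT, and the 3 genes outside the lists most correlated with Cyp7a1, Abcb11 and Nr1h4; others named were chosen after their values were seen. Alternatives were DESeq2 1.42.0, limma 3.58.1 voom with sample weights, upper-quartile and RLE scaling, a filter of 1 CPM in 4 libraries, no filter, only the 2 groups compared, a replicate block, hepatocyte and Y-linked covariates, 3 libraries left out for Y-linked counts above 100 CPM, each library left out, a prior count of 0.5 and Spearman correlation. Promoters and positions are from RefSeq, build GRCm38.p6.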

Additional observations from a re-analysis of the deposited data

Results flagged for a closer look

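WT 2 stood far above the other 4 WT libraries for 3 of the 10 genes. Cyp7a1 was at 38.1 CPM in WT 2, and the nearest WT library was at 8.49 CPM, a gap of 0.802 of the whole WT range. Cyp8b1 was at 3.43 CPM in WT 2 against 0.315 CPM in the nearest, a gap of 0.908 of the range. Nr0b2 was at 7.42 CPM against 1.54 CPM, a gap of 0.827 of the range. Dixon's 95% critical value is 0.710 for 5 libraries. Chance flags about 1 in 20 groups of normally distributed values, and 30 groups (10 genes in 3 genotypes) were examined. The gaps were taken on CPM, where the WT SD exceeded the WT mean for these 3 genes, so that rate may not hold. On log2 CPM, WT 2, the next WT library and the lowest were at 5.28, 3.20 and 0.88 for Cyp7a1. They were at 2.04, -0.02 and -0.57 for Cyp8b1 and at 3.02, 1.15 and -0.02 for Nr0b2. Gaps on the log2 scale were not tested. The 10 genes move together, so the 3 flags are not independent.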

How the results depend on the processing

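The median difference from WT kept its sign for the 10 genes under each alternative run, and most values changed little with the scaling. By edgeR's adjusted p, 0 of 10 genes passed with the main settings in each comparison. The choice of test and filter changed that count: DESeq2 called 8 genes in CDK18KO and 9 in DKO (4.3% and 6.25% of all genes called higher), and edgeR without a filter called 3 and 3. The number of genes tested without a filter is not given, so no share stands beside those counts. Over all genes, DESeq2 called 856, 1033 and 84 (CDK18KO against WT, DKO against WT, DKO against CDK18KO), no filter 173, 252 and 42, the hepatocyte covariate 2, 2 and 1, and the main settings 1, 1 and 0. Voom with sample weights, the Y-linked covariate, only the 2 groups compared, and the fit without high Y-linked libraries each called 0 against WT. The cause was not tested.

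Library numbers do not pair the samples by the labels, and 3 of 14 libraries correlated best with their own number (same-number correlations -0.23 to 0.65 over 13 pairs). With the replicate block, 6 genes of the set were called in CDK18KO (1.61% of all genes called higher) and 8 in DKO (2.94%), of 297 and 438 genes in all, and 1 gene of the set had an unadjusted p under 0.05 between DKO and CDK18KO. The same count was 1 with no filter and 2 with the hepatocyte covariate (4.19% of all genes higher, 2.42% lower), against 0 with the main settings. Shares of all genes at that p are not given for the replicate block and the unfiltered fit. Their counts of 1 are therefore not set against a background.

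The hepatocyte covariate moved the medians to 1.08 and 0.32 and the numbers of genes at an unadjusted p under 0.05 to 3 and 0. The Y-linked covariate left 3 in DKO. With the hepatocyte covariate Nr0b2 reversed to -0.53 in CDK18KO, and Nr0b2 (-0.71), Cyp8b1 (-0.32) and Abcb4 (-0.0871) reversed in DKO.

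Between DKO and CDK18KO, signs of small differences were not stable. With the hepatocyte covariate Cyp8b1 was -0.96, Cyp27a1 -0.0927, Cyp7b1 -0.81 and Nr0b2 -0.18. With the Y-linked covariate Cyp8b1 was -0.32 and Cyp7b1 -0.24, and without high Y-linked libraries -0.10 and -0.0602. Voom gave 0.21 for Abcb11, 0.32 for Abcc2, 0.57 for Abcb4 and 0.69 for Nr1h4. The replicate block gave -0.28 for Cyp7b1, 0.0106 for Abcb4 and 0.29 for Nr1h4. Nr1h4, at -0.01, was 0.00471 with DESeq2, 0.00449 with RLE, 0.0167 with upper-quartile factors and 0.00488 with only the 2 groups.

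Leaving out each library in turn gave 0 to 74 genes called in CDK18KO (74 without CDK18KO 1), 0 to 1 in DKO and 0 to 2 between the knockouts (2 without CDK18KO 1). Medians over the set ranged from 3.14 to 4.99, 2.83 to 4.84 and -0.44 to 0.91. Between DKO and CDK18KO, Cyp8b1 ranged from -0.61 to 0.86, Cyp27a1 from -0.14 to 1.01, Cyp7b1 from -1.19 to 1.28, Abcb4 from -1.07 to 0.46 and Nr1h4 from -0.28 to 0.35. The median correlation was 0.87 with a prior count of 0.5 and 0.86 by Spearman. Cyp8b1, Cyp7b1 and Nr0b2 rest on 27, 23 and 61 WT counts, which limits the precision of their differences.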
